A study of Mus musculus with 6 samples.

Results

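The RNAs described here are 7 noncoding RNAs that are known from other work to stay in the nucleus or to act there: Malat1, Neat1, Kcnq1ot1, Scarna10, Meg3, Tug1 and Miat. They were picked by gene symbol, 7 of the 57010 gene IDs in the table, with their levels in these libraries already known, and the question asked of them was whether they vary between libraries independently of genotype. Levels and fold changes of these RNAs are therefore given as a description. RNA was sequenced from immunoprecipitates of PNMA4, a protein encoded by a capsid-like gene of retrotransposon origin (Moap1 in mouse gene tables), out of iodixanol gradient fractions 8 and 9, which hold dense particles of testis lysate. Of the 6 libraries, 3 lacked PNMA4 and 3 were wild type (C57BL/6J). Among those lacking PNMA4, replicates 1 and 2 came from Pnma4 KO mice and replicate 3 from a double knockout (DKO) of Pnma1 and Pnma4, which the labels place in the same group. Each library was made from the lysate of 8 testes pooled from mice aged 3 months. The lysates were made from ground frozen testis in a buffer with a mild detergent and were cleared of coarse material by spinning before the gradients. The libraries lacking PNMA4 hold what antibody, beads and gradient recover in the absence of the protein. No nuclear fraction was among the samples, so the nuclear origin of these RNAs was not measured here and the name rests on background knowledge.

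Long noncoding RNAs that remain in the nucleus often sit in nuclear bodies. Malat1 gathers in nuclear speckles, which store splicing factors, and Neat1 is the scaffold around which paraspeckles form. Kcnq1ot1 and Meg3 come from imprinted domains, in which 1 parental copy of a gene is silent, and Kcnq1ot1 stays on its own chromosome and keeps neighbouring genes silent. Scarna10 is a small RNA of Cajal bodies, where such RNAs guide chemical modification of spliceosomal RNAs. Tug1 is found both in nucleus and cytoplasm, and Miat, also called Gomafu, forms spots in the nuclei of neurons.

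The labels held for the deleted genes, with Moap1 at 0 counts in each library lacking PNMA4 and at 7, 26 and 27 in wild type, and with Pnma1 at 0 in the double knockout library and at 76 to 152 in the other 5. Total counts were 3138657 to 6367930 in libraries lacking PNMA4 and 3743015 to 6118126 in wild type. The double knockout library stood apart, with 66.3% of its counts in ribosomal RNA-like genes, against 37.4% and 46.9% in the Pnma4 knockouts and 28.1% to 42.8% in wild type. Summed levels of Leydig cell markers (8 genes, all with counts) were 424 CPM in that library, 164 and 213 CPM in the Pnma4 knockouts, and 166 to 190.5 CPM in wild type. Those of Sertoli cell markers (11 genes, all with counts) were 470 CPM, 209 and 299 CPM, and 210 to 286 CPM, in the same order. Single Leydig cell markers differed in this. Cyp17a1 had 128 CPM in the double knockout, 55.2 and 32.1 CPM in Pnma4 KO replicates 1 and 2, and 38.1 to 39.8 CPM in wild type. Star had 46.5 CPM, 43.8 and 38.3 CPM, and 38.2 to 46.8 CPM, in the same order. Levels are CPM, counts scaled to a common library size, here the size after scaling for composition (TMM), and intervals of single libraries are exact 95% Poisson intervals that cover counting error only. In RNA of such immunoprecipitates, the number of cells of a type, the RNA per cell and the recovery by gradient, antibody and beads cannot be told apart. Nothing in the labels says how the lysates were spread over days, so no batch could be set against the groups.

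Malat1, Kcnq1ot1 and Scarna10 were high in the same 3 libraries after scaling for composition, and these came from all 3 genotypes. Tug1 and Neat1 were also highest in wild-type replicate 3, but had the double knockout among their low libraries. They ranged less widely than Malat1 after scaling for composition, though not with library totals alone, and Meg3 and Miat had few counts. Malat1, Kcnq1ot1 and Tug1 serve here to show the start regions of 2 RNAs that were high in the same libraries and of 1 that was not. Each sequence covers 250 bases before and 50 bases after the annotated start, 5′ to 3′, from RefSeq (GRCm38.p6). Capitals mark CCAAT or its reverse complement ATTGG, the core of the binding site of the factor NF-Y. Malat1 is shown from chr19:5802623-5802922 on the minus strand, Kcnq1ot1 from chr7:143296498-143296797 on the minus strand, and Tug1 from chr11:3648765-3649064 on the minus strand.
Malat1: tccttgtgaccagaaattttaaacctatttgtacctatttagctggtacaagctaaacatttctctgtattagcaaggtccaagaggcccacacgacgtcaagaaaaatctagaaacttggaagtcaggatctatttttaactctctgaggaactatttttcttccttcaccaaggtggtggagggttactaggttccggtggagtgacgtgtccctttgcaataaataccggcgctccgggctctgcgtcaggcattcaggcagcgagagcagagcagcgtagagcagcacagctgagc
Kcnq1ot1: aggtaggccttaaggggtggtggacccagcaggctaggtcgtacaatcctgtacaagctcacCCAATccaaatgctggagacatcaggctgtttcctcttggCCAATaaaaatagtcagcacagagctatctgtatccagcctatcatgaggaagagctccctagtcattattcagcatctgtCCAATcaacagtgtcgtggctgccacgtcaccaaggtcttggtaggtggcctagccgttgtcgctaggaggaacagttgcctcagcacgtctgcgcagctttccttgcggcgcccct
Tug1: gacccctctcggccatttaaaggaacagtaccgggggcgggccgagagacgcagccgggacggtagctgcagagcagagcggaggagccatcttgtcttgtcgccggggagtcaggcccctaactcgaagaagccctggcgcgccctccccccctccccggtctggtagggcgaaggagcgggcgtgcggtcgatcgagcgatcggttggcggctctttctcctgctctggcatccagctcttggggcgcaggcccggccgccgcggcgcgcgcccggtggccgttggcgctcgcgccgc
The Kcnq1ot1 sequence held 3 such matches on either strand, and those of Malat1 and Tug1 held 0. Of 32851 promoter sequences of this length, 37.4% held at least 1. The GC content was 47.0% for Malat1, 53.3% for Kcnq1ot1 and 71.3% for Tug1, against a median of 52.7% over all these promoters. Promoter sequences of this kind were at hand for 5 of the 7 RNAs.

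Malat1 (ENSMUSG00000092341, chromosome 19, 5795690 to 5802672 in GRCm38.p6) had the most counts of the 7. It had 1782 and 8552 counts in Pnma4 KO replicates 1 and 2 and 3943 counts in the double knockout library, against 2239, 3164 and 7306 counts in wild-type replicates 1 to 3. As levels these were 565.5, 1222 and 1319 CPM without PNMA4 and 588.5, 404.7 and 1122 CPM in wild type. The double knockout, Pnma4 KO replicate 2 and wild-type replicate 3 lay high, the other 3 libraries lay low, and the groups overlapped. Counting error was small beside this spread, with an interval of 1097 to 1148 CPM in wild-type replicate 3 and 391 to 419 CPM in wild-type replicate 2. Within a group, the highest library stood 2.33-fold over the lowest without PNMA4 and 2.77-fold in wild type, while the group means, 1035 ± 410 CPM without PNMA4 and 705 ± 373 CPM in wild type (SD, n = 3 each), differed 1.47-fold.

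Kcnq1ot1 (ENSMUSG00000101609, chromosome 7, 143213111 to 143296547) was high in the same libraries, from far fewer counts. Its levels were 14.3, 28.4 and 24.4 CPM in Pnma4 KO replicates 1 and 2 and the double knockout, and 16.6, 13.2 and 40.4 CPM in wild-type replicates 1 to 3. Wild-type replicate 3 was the highest library and wild-type replicate 2 the lowest, so the whole range of 3.07-fold lay within wild type. The counts behind these levels were 45, 199 and 73 without PNMA4 and 63, 103 and 263 in wild type. With library totals and no scaling factors the double knockout library was no longer among the high ones (15.3 CPM of total counts, with 14.3 and 31.2 in the Pnma4 knockouts and 16.8, 16.8 and 43.2 in wild type). Leaving the rRNA-like genes out before scaling returned it to that place.

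Scarna10 (ENSMUSG00000089617, chromosome 6, 125186361 to 125186431), with a RefSeq span of only 71 bases, had the widest range of the 7 after this scaling. It stood at 10.8, 23.9 and 46.2 CPM in Pnma4 KO replicates 1 and 2 and the double knockout, from 34, 167 and 138 counts. In wild-type replicates 1 to 3 it stood at 16.3, 8.57 and 31.8 CPM, from 62, 67 and 207 counts. The same 3 libraries lay high as for Malat1, and the highest stood 5.38-fold over the lowest. With library totals and no factors its range was 3.14-fold, and that of Meg3, at 3.98-fold, was wider. Of the libraries low for Malat1, Kcnq1ot1 and Scarna10, Pnma4 KO replicate 1 and wild-type replicate 1 had the smallest totals of the series (3138657 and 3743015 counts). Wild-type replicate 2, also low for all 3, had the second largest (6118126 counts). A part of depth in these levels was not tested.

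**Figure D1:**
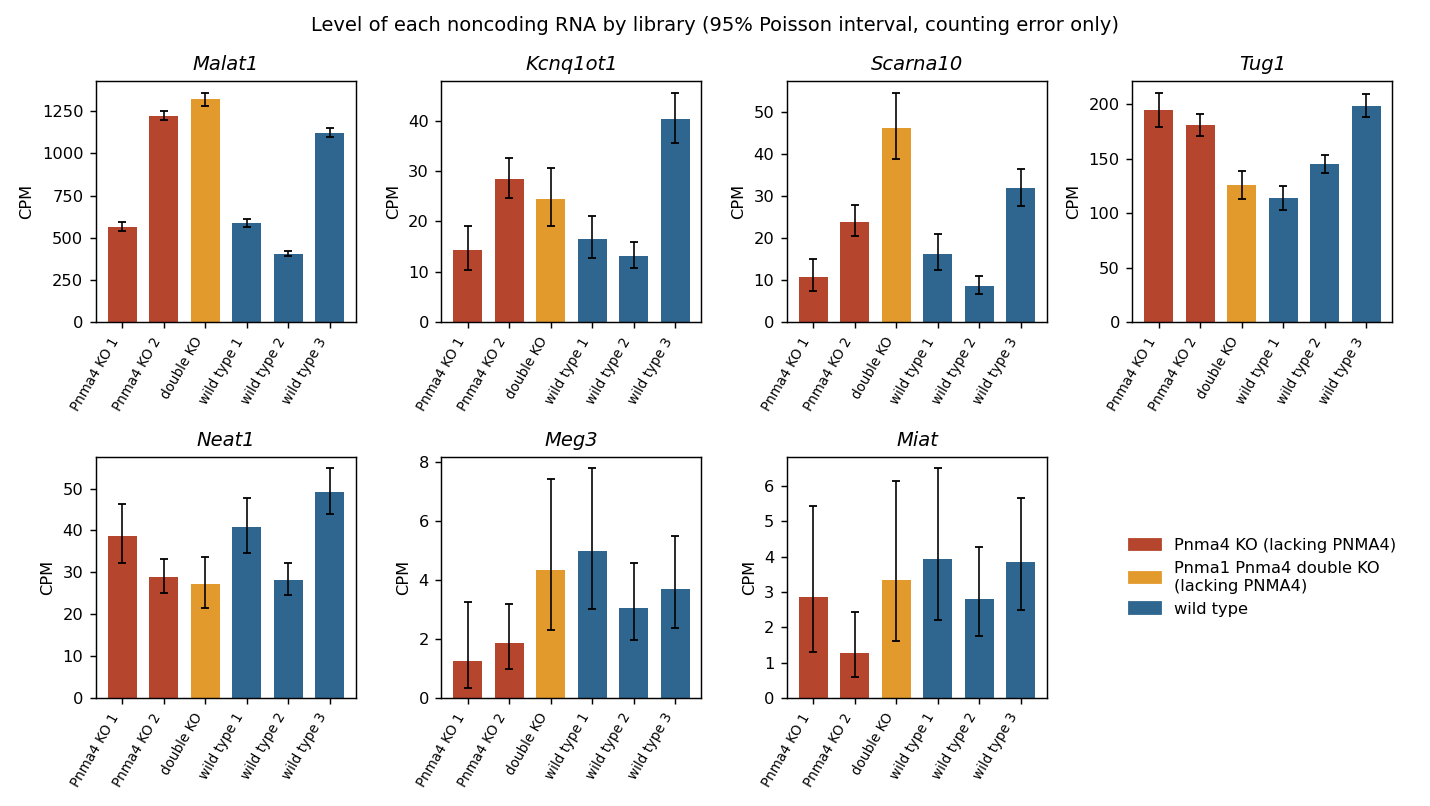
Bars give the level in CPM (y axis, a scale for each panel) of each RNA in each library (x axis), with the Pnma4 KO libraries at the left, the double knockout next and wild type at the right, and whiskers give exact 95% Poisson intervals. Malat1, Kcnq1ot1 and Scarna10 are high in Pnma4 KO replicate 2, the double knockout and wild-type replicate 3, while Tug1 and Neat1 have the double knockout among their low libraries.

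Tug1 (ENSMUSG00000056579, chromosome 11, 3639785 to 3648814) had the second most counts and did not share that order. It had 194.5, 181 and 125 CPM in Pnma4 KO replicates 1 and 2 and the double knockout, against 114, 145 and 198.5 CPM in wild-type replicates 1 to 3. Pnma4 KO replicate 1, a low library for Malat1, was next to the highest for Tug1, and the double knockout, the highest for Malat1, was next to the lowest. The highest library stood 1.74-fold over the lowest, and the groups overlapped throughout, at 167 ± 36.6 CPM without PNMA4 and 152 ± 42.9 CPM in wild type (SD, n = 3 each).

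Neat1 (ENSMUSG00000092274, chromosome 19, 5824708 to 5845480) lies 22035 bases from Malat1 on the same chromosome and varied in another way. Its levels were 38.7, 28.9 and 27.1 CPM without PNMA4 (122, 202 and 81 counts) and 40.7, 28.1 and 49.2 CPM in wild type (155, 220 and 320 counts), in the same order of libraries. Wild-type replicate 3 was the highest, as for Kcnq1ot1, but the double knockout was the lowest. The interval of the double knockout, 21.5 to 33.7 CPM, overlapped those of both Pnma4 KO libraries and of wild-type replicate 2. The interval of wild-type replicate 3, 43.9 to 54.9 CPM, lay above those of Pnma4 KO replicate 2, the double knockout and wild-type replicate 2, and overlapped those of Pnma4 KO replicate 1 (32.1 to 46.2 CPM) and wild-type replicate 1 (34.6 to 47.7 CPM).

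Meg3 and Miat had few counts. Meg3 (ENSMUSG00000021268, chromosome 12, 109540996 to 109571729) had 4, 13 and 13 counts without PNMA4 and 19, 24 and 24 in wild type, or 1.27, 1.86 and 4.35 CPM against 4.99, 3.07 and 3.69 CPM. Both Pnma4 KO libraries were below all wild-type libraries and the double knockout was not, but the counting intervals of every pair of libraries overlapped. Miat (ENSMUSG00000097767, chromosome 5, 112213228 to 112228948) had 9, 9 and 10 counts without PNMA4 and 15, 22 and 25 in wild type, or 2.86, 1.29 and 3.34 CPM against 3.94, 2.81 and 3.84 CPM. For Miat the intervals of Pnma4 KO replicate 2 (0.588 to 2.44 CPM) and wild-type replicate 3 (2.49 to 5.67 CPM) did not overlap, and those of all other pairs did. The groups overlapped for both RNAs.

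**Figure D2:**
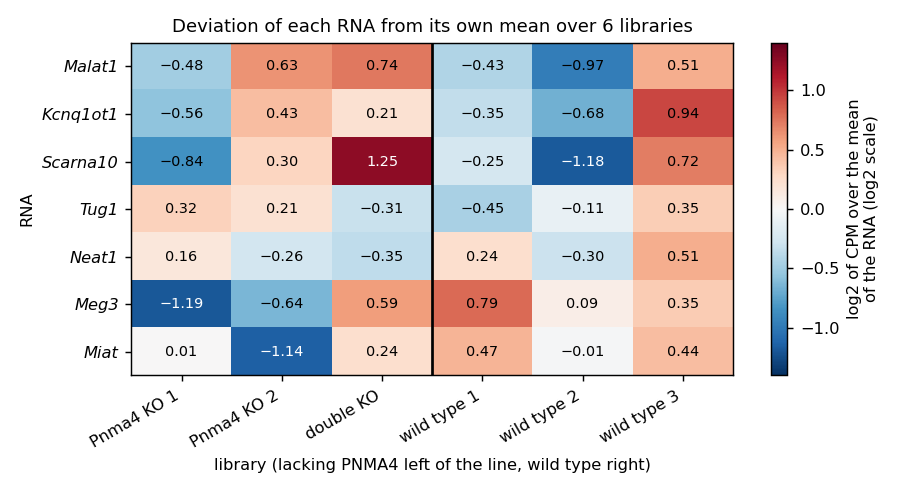
Each cell gives the log2 deviation of an RNA (rows) in a library (columns, lacking PNMA4 left of the line and wild type right of it) from the mean of its log2 CPM over the 6 libraries. Malat1, Kcnq1ot1 and Scarna10 share the sign of every column, and the other 4 rows do not share it with them.

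The spread between libraries was wider than the median gene's for all 7 RNAs. Most of it lay within the groups, as it also did for the median gene. The SD of log2 CPM over the 6 libraries was 0.71 for Malat1, 0.62 for Kcnq1ot1, 0.91 for Scarna10, 0.66 for Meg3, 0.51 for Miat, 0.35 for Neat1 and 0.34 for Tug1, against a median of 0.31 over the 13413 genes tested. Scarna10 was thereby wider than 98.9% of tested genes and Malat1 wider than 95.8%, whereas Neat1 and Tug1 were wider than 59.1% and 57.3%. For Meg3 and Miat this SD includes the counting error of few counts. Of the squared deviations of log2 CPM, the part between the 2 groups was 20.5% for Malat1, 0.223% for Kcnq1ot1, 7.77% for Scarna10, 5.29% for Tug1, 21.6% for Neat1, 34.2% for Meg3 and 30.8% for Miat. The median of this share was 20.5% over the 7 RNAs and 11.3% over all tested genes.

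Ratios of counts within a library do not depend on how libraries are scaled. Malat1 over Neat1 was 14.6, 42.3 and 48.7 in Pnma4 KO replicates 1 and 2 and the double knockout, and 14.4, 14.4 and 22.8 in wild-type replicates 1 to 3. It thus ranged 3.38-fold, and Malat1 over Tug1 ranged 3.76-fold, from 2.91, 6.77 and 10.5 without PNMA4 and 5.17, 2.80 and 5.65 in wild type. The ratio of Malat1 to Kcnq1ot1 ranged less, 1.94-fold, at 39.6, 43.0 and 54.0 without PNMA4 and 35.5, 30.7 and 27.8 in wild type. In this ratio the libraries lacking PNMA4 all lay above wild type, which was not tested. Malat1 over Scarna10 ranged 1.83-fold, at 52.4, 51.2 and 28.6 without PNMA4 and 36.1, 47.2 and 35.3 in wild type. Malat1 made up 68.3%, 82.2% and 85.1% of the counts of the 7 RNAs without PNMA4 and 75.0%, 66.9% and 77.4% in wild type, so the summed level of the 7 (828, 1487 and 1549 CPM against 785, 605 and 1450 CPM) mostly repeats Malat1.

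**Figure D3:**
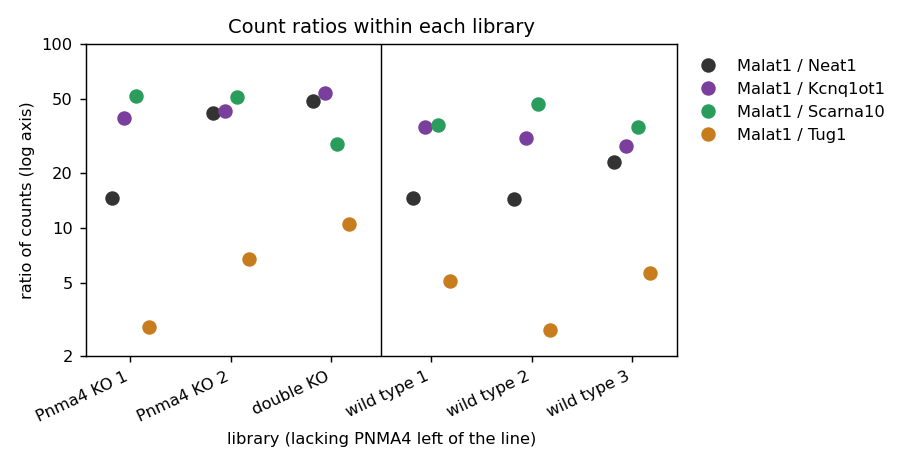
Points give the ratio of Malat1 counts to those of Neat1, Kcnq1ot1, Scarna10 or Tug1 (y axis, log scale) within each library (x axis, lacking PNMA4 left of the line). The ratios to Neat1 and Tug1 range 3.38-fold and 3.76-fold over the libraries, those to Kcnq1ot1 and Scarna10 range 1.94-fold and 1.83-fold.

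Levels of different RNAs can be compared only per length, and for the 3 that are unspliced along most of their span the annotated span was used. Over the 6 libraries Malat1 averaged 125 CPM per kilobase of span, Neat1 1.71 and Kcnq1ot1 0.274. The span of Neat1 is that of its long form, and reads of its short form fall in only part of it. Malat1 is also the source of mascRNA, a small tRNA-like RNA cut from its end, which was not analysed here.

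None of the 7 RNAs was called different between the groups by edgeR's quasi-likelihood test over all genes, in which 0.0596% of 13413 genes were called at an adjusted p under 0.05. None had an unadjusted p under 0.05, against 2.92% of all genes, and none was called by DESeq2 or limma-voom, in which 0 and 2 of the 7 had an unadjusted p under 0.05, against 1.72% and 5.32% of all genes. Without wild-type replicate 3, 3 of the 7 had an unadjusted p under 0.05 in edgeR, against 9.92% of all genes, and none was called. The groups of none of the 7 stood apart without overlap, against 6.69% of all genes, or 3.28% with the libraries lacking PNMA4 lower. All 7 passed the filter on low counts. Since the RNAs were chosen with these levels known, nothing further is read from the counts.

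As values, the log2 fold changes (lacking PNMA4 over wild type) were 0.55 for Malat1 (SE 0.32), 0.50 for Scarna10 (SE 0.39), 0.13 for Tug1 (SE 0.23) and −0.05 for Kcnq1ot1 (SE 0.32). They were −0.32 for Neat1 (SE 0.24), −0.60 for Miat (SE 0.43) and −0.68 for Meg3 (SE 0.44). Thus 3 were above 0 and 4 below, with a median of −0.05, and the median of all tested genes was −0.01. The 95% intervals of all 7 included 0, and reached from −0.10 to 1.21 for Malat1, from −0.29 to 1.29 for Scarna10, from −0.71 to 0.61 for Kcnq1ot1, from −1.50 to 0.29 for Miat and from −1.59 to 0.22 for Meg3. The intervals of Malat1, Scarna10, Miat and Meg3 thus held changes of 2-fold. Single libraries moved these values. Without wild-type replicate 3, Malat1 stood at 1.05, Scarna10 at 1.14, Kcnq1ot1 at 0.62, Tug1 at 0.36 and Neat1 at −0.12. Without wild-type replicate 2, Malat1 was at 0.27, Kcnq1ot1 at −0.36 and Neat1 at −0.52. Without the double knockout library, Malat1 stood at 0.35, Scarna10 at −0.07, Kcnq1ot1 at −0.09, Tug1 at 0.30, Neat1 at −0.22, Miat at −0.89 and Meg3 at −1.20. Without Pnma4 KO replicate 1 Meg3 was at −0.43, without Pnma4 KO replicate 2 Miat was at −0.17, and without wild-type replicate 1 Tug1 was at −0.03. The largest move for Malat1, Scarna10 and Kcnq1ot1 thus came with wild-type replicate 3, 1 of their high libraries.

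**Figure D4:**
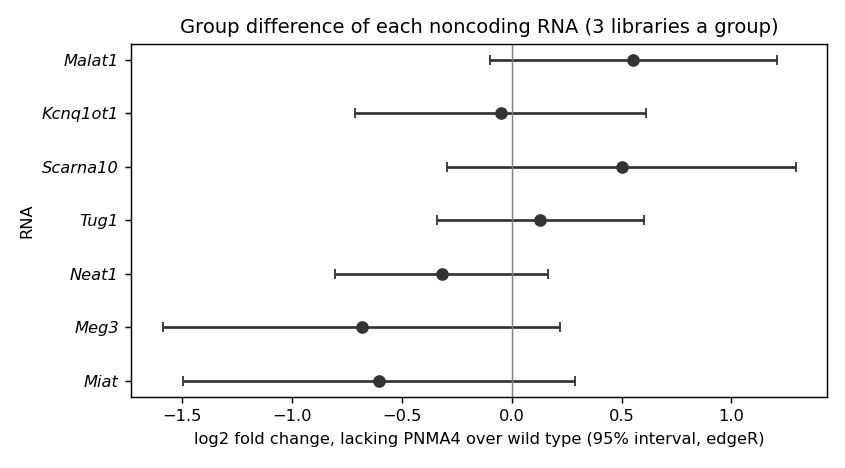
Points give the log2 fold change of each RNA (lacking PNMA4 over wild type, x axis) from edgeR and bars its 95% interval, with 3 libraries in each group. All 7 intervals include 0, with values from −0.68 for Meg3 to 0.55 for Malat1.

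The double knockout library was set against both Pnma4 knockouts in a fit with the 3 genotypes as groups, which assumes that the single library varies like the rest. In it 0.0746% of 13413 genes were called and none of the 7 RNAs, of which 2 had an unadjusted p under 0.05, against 6.19% of all genes. These were Scarna10, with a log2 fold change of 1.36 (SE 0.47), and Meg3, with 1.39 (SE 0.65). Malat1 was at 0.56 (SE 0.45), Kcnq1ot1 at 0.15 (SE 0.48), Miat at 0.83 (SE 0.69), Neat1 at −0.31 (SE 0.38) and Tug1 at −0.58 (SE 0.36). Pnma4 KO replicates 1 and 2 were themselves on opposite sides of the range for Malat1, Kcnq1ot1 and Scarna10. Marker sums of Leydig, Sertoli, stromal, macrophage and blood cells, spermatogonia and spermatocytes were also highest in the double knockout library, and their part in these values was not tested.

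Genes that overlap or adjoin these RNAs were set beside them. Scarna10 lies within the span of Ncapd2, a condensin subunit gene, which had 111, 119 and 92.6 CPM without PNMA4 and 127.5, 139.5 and 100.5 CPM in wild type, lowest in the double knockout, where Scarna10 was highest. Kcnq1ot1 lies within the span of the potassium channel gene Kcnq1, which is transcribed the other way and had 0, 3 and 1 counts without PNMA4 and 6, 2 and 4 in wild type. Whether the counting used strand is not given in the sources used here, so reads where such genes overlap are uncertain as to their source. Frmd8, beside Neat1, stood at 32.7 ± 2.74 CPM without PNMA4 and 38.5 ± 7.72 CPM in wild type (SD, n = 3 each). Morc2a, a gene 374 bases beyond the span of Tug1, stood at 114 ± 9.39 and 108 ± 14.4 CPM. Rtl1, which overlaps Meg3 and like Moap1 derives from a retrotransposon, had 0 counts in the libraries lacking PNMA4 and 2, 4 and 1 in wild type. With so few counts Rtl1 did not pass the filter, and no group difference was tested for it.

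Other noncoding RNAs were counted from lists to see how far the pattern reached. In the list of long noncoding RNAs that work largely in the cytoplasm (13 genes, 6 tested), the sum was highest in the same 3 libraries. Its summed level was 240.5, 349 and 302 CPM in Pnma4 KO replicates 1 and 2 and the double knockout, and 202, 185 and 357 CPM in wild-type replicates 1 to 3. Norad, a cytoplasmic RNA that binds Pumilio proteins, had 137, 201 and 164 CPM without PNMA4 and 125, 99.9 and 196 CPM in wild type. Oip5os1, also called Cyrano, had 83.1, 124 and 114 CPM and 62.0, 70.2 and 135.5 CPM in the same order. Norad and Oip5os1 made up most of the sum in every library, so the sum says little of the other genes of the list. The sum ranged 1.93-fold, and the median range of its 6 tested genes was 2.31-fold, with Malat1 at 3.26-fold.

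Lists of nuclear RNAs outside the 7 differed among themselves in which libraries were high. Imprinted and X inactivation noncoding RNAs (9 in the table, 5 tested) summed to 18.4, 22.0 and 17.4 CPM without PNMA4 and 18.9, 18.2 and 29.3 CPM in wild type, with the double knockout lowest. Other long nuclear and miRNA host RNAs (13 genes, 5 tested) summed to 31.1, 35.1 and 34.1 CPM against 27.1, 21.5 and 43.5 CPM, and here the 3 high libraries of Malat1 were again the highest and wild-type replicate 2 the lowest. Small nuclear, nucleolar and Cajal body RNAs (180 IDs, 51 with a count, 3 tested) summed to 251, 360 and 599 CPM against 274, 331 and 327 CPM, with the double knockout highest and wild-type replicate 2, the lowest library of Malat1, the third. Most of that sum was Rn7sk, the 7SK RNA that holds back transcription elongation, at 208.5, 296 and 495 CPM without PNMA4 and 234, 295 and 268 CPM in wild type. Rpph1, the RNA of RNase P, stood at 20.6, 45.3 and 58.9 CPM and 23.7, 27.9 and 31.8 CPM.

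Single messages for the proteins of the nuclear bodies ranged about as widely as Tug1, Neat1 and the median tested gene (1.84-fold), and their sums less, since a sum evens out moves in opposite directions. Paraspeckle protein messages (14 tested) summed to 1161, 1273 and 1100 CPM without PNMA4 and 1199, 1179 and 1242 CPM in wild type, and this sum ranged 1.16-fold, while the median range of a single message was 1.69-fold. The sum of nuclear speckle protein messages (20 tested) ranged 1.24-fold and the median message 1.68-fold, with Srrm2, a large speckle scaffold, at 466 ± 80.2 CPM without PNMA4 and 569 ± 83.7 CPM in wild type (SD, n = 3 each). The sum of Cajal body and small RNP protein messages (12 tested) ranged 1.42-fold and the median message 1.71-fold, with Coil, the coilin gene, at 110 ± 14.3 and 97.3 ± 19.1 CPM. In the imprinted domain of Kcnq1ot1, 5 of 11 genes were tested, and Nap1l4, a histone chaperone gene, stood at 57.9 ± 6.63 and 59.3 ± 7.20 CPM. In the domain of Meg3, Rian had 1.27, 1.71 and 1.67 CPM without PNMA4 and 2.10, 2.17 and 2.61 CPM in wild type, and Mirg had 1.82 ± 0.350 and 1.81 ± 0.479 CPM. The levels of Rian rest on few counts, 4, 12 and 5 without PNMA4 and 8, 17 and 17 in wild type. Its groups did not overlap, as for 3.28% of tested genes with the libraries lacking PNMA4 lower.

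No gene of these lists was called in the edgeR fit in either direction. Median log2 fold changes (lacking PNMA4 over wild type) were 0.43 for largely cytoplasmic RNAs, 0.58 for small nuclear RNAs, 0.19 for other long nuclear RNAs, −0.13 for imprinted and X inactivation RNAs and −0.26 for the 2 tested genes of the Meg3 domain. Those of paraspeckle, nuclear speckle and Cajal body protein messages and of the Kcnq1ot1 domain lay at −0.04, −0.03, −0.10 and −0.03. The 3 tested rRNA-like genes had a median of 0.85, and the double knockout library held the largest share of them.

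**Figure D5:**
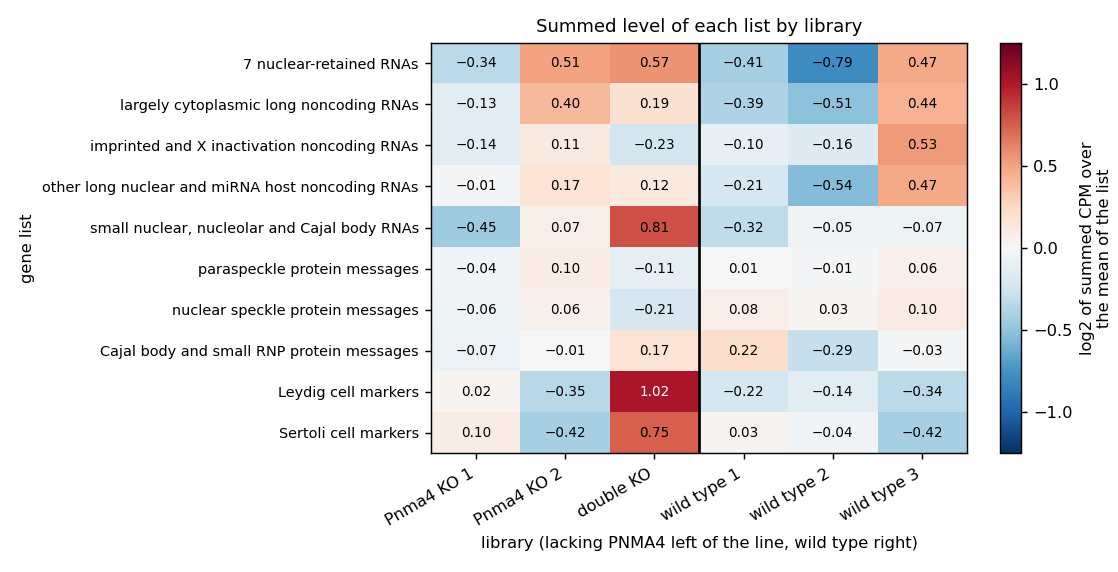
Cells give the log2 deviation of the summed CPM of each list (rows) in each library (columns, lacking PNMA4 left of the line) from the list's own mean. The 7 RNAs, the largely cytoplasmic RNAs and the other long nuclear RNAs are above their means in Pnma4 KO replicate 2, the double knockout and wild-type replicate 3, and the sums of protein messages of nuclear bodies range at most 1.42-fold.

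Cell type markers were set beside these values. Spermatocyte markers (8 genes) summed to 1524, 1562 and 1627 CPM without PNMA4 and 1530, 1502 and 1536 CPM in wild type. That sum ranged 1.08-fold, while the median range of a single marker was 2.14-fold. Spermatid markers (12 genes) lay at 1889 to 2129 CPM and 1640 to 2084 CPM. Spermatogonia markers (7 genes) summed to 80.9 CPM in the double knockout, 52.7 and 59.4 CPM in the Pnma4 knockouts and 56.5 to 57.8 CPM in wild type. Single markers among them differed. Zbtb16 was lowest in the double knockout, at 9.36 CPM, with 12.1 and 16.6 CPM in the Pnma4 knockouts and 11.2 to 12.7 CPM in wild type. The receptor gene Kit was highest there, at 46.5 CPM, with 18.1 and 22.9 CPM in the Pnma4 knockouts and 19.4 to 24.3 CPM in wild type. The double knockout library was also the highest for stromal and vascular markers (12 genes), at 112 CPM against 69.9 and 79.0 CPM in the Pnma4 knockouts and 63.5 to 84.1 CPM in wild type. It was the highest as well for macrophage and leukocyte markers (9 genes), at 36.1 CPM against 24.0 and 31.4 CPM and 21.9 to 26.1 CPM, and for blood markers (5 genes), at 14.7 CPM against 6.29 and 7.30 CPM and 5.88 to 8.94 CPM. No marker was at 0 in all libraries of a group. The tissue label thus had its germ cell markers in every library. Leydig and Sertoli cell sums were highest in the double knockout and lowest in Pnma4 KO replicate 2 and wild-type replicate 3, so the 3 high libraries of Malat1 held both ends of the range of these markers.

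The messages closest in pattern to Malat1 were messenger RNAs. Over the 6 libraries, Dld, which encodes a subunit of mitochondrial dehydrogenase complexes, had a Pearson r of 0.997 with Malat1 on log2 CPM (Spearman rho 0.943, and r = 0.992 without the 2 libraries farthest from the median of Malat1). Metap2, a methionine aminopeptidase gene, had an r of 0.992 and Cops2, of the COP9 signalosome, one of 0.990 (rho 0.943 and 1.00, r of 0.991 and 0.981 without those 2 libraries). Dld had 47.5 CPM in the double knockout, its highest library, and 29.7 CPM in wild-type replicate 2, its lowest, a smaller range than that of Malat1. Of 7105 genes with a mean of at least 10 CPM, 191 (2.69%) had an r of at least 0.9 with Malat1, 299 (4.21%) with Kcnq1ot1 and 172 (2.42%) with Scarna10. Only 42 did so with Tug1 and 14 with Neat1, while of 7106 genes 20 did so with Meg3 and 3 with Miat. Closest to Tug1 were M5C1000I18Rik (r = 0.988), the GTPase gene Nras (0.969) and the histone gene H2bc21 (0.960), with rho of 0.943 for each and r of 0.988, 0.983 and 0.922 without its 2 farthest libraries. These values describe likeness over 6 libraries that share their scaling, and no test was made of them.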

How the data were processed

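RNA from 6 immunoprecipitates was sequenced, and the authors deposited a single table of raw counts, whole numbers per Ensembl gene ID. The tools bcl2fastq 2.20, STAR 2.5.2b, featureCounts and DESeq2 and the build GRCm38 are listed, without roles, per the submitters' processing notes. How strand and multi-mapped reads were handled, and which annotation was used, is not given in the sources used here. All 6 count columns were matched to libraries by name.

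Genes were kept by filterByExpr (minimum count of 10, minimum total of 15), scaled with TMM factors and fitted by the quasi-likelihood method (edgeR 4.0.16, R 4.3.3), with Benjamini-Hochberg adjustment at 0.05 over 13413 genes. DESeq2 1.42.0 and limma-voom (limma 3.58.1) were alternatives. Standard errors were obtained by dividing log2 fold changes by the root of F, and log2 CPM used a prior count of 2. In simulated data the fit recovered 94.7% of 4-fold and 46.4% of 2-fold changes, and 6.56% of its calls were false. No library repeated another within sampling noise (chi-square per gene of at least 8.60 in every pair). The design text calls the lysates biological replicates. The p-values of the group comparison set the group difference against the spread between lysates of a group. In the group lacking PNMA4 that spread includes any difference between Pnma4 KO and double knockout. The 7 RNAs and the gene lists were chosen with earlier results of these data known. Named genes were the 7 RNAs, Moap1 and Pnma1, overlapping and adjoining genes, the most abundant genes of each list and the 3 genes most alike in pattern to Malat1 and to Tug1; not all of these are printed. Positions and promoters came from RefSeq tables of GRCm38.p6, which need not match the annotation used for counting.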

Additional observations from a re-analysis of the deposited data

How the results depend on the processing

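None of the 7 RNAs was called under any alternative run, with all 7 tested in each; at an unadjusted p under 0.05 there were at most 3 (edgeR without wild-type replicate 3, where 9.92% of all genes were under it). Over all genes, 5 were higher and 3 lower without PNMA4, against 3 higher in limma-voom, 20 higher and 11 lower with no filter on low counts, and 1 higher with at least 1 CPM required in all 6 libraries. With 1 library left out, 5 to 14 genes were higher (14 without the double knockout) and 2 to 6 lower (6 without wild-type replicate 2). Without scaling factors the median log2 fold change of all genes was −0.32, with Malat1 at 0.24, Scarna10 at 0.11, Tug1 at −0.12, Kcnq1ot1 at −0.33, Neat1 at −0.58, Miat at −0.93 and Meg3 at −1.04. Only Tug1 thereby crossed 0, and it stayed above the median of all genes. That scaling also moved the range over libraries of Neat1 to 3.10-fold and of Tug1 to 2.71-fold, both then wider than Malat1 at 2.60-fold, and turned the double knockout contrast, which had 5 genes higher and 5 lower, into 2 higher and 199 lower (201 in all). The log2 ratio of the summed level of the 7 RNAs was 0.49, from 0.15 to 0.49 under the other scalings and from 0.21 to 0.84 with 1 library left out. Same-numbered libraries did not deviate together (correlations of 0.04, −0.06 and 0.08 over genes), and a fit with the replicate number as a block called 4 genes higher and 3 lower, none of the 7 RNAs. The block cannot move the summed ratio in this balanced design (0.49), and it put Kcnq1ot1 at 0.08, with limma-voom at 0.32, against −0.05. Depth limits Meg3 and Miat, with at most 25 counts in a library.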

Other observations

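Snhg14, an imprinted noncoding RNA that runs antisense to Ube3a in neurons, had 8, 24 and 8 counts in Pnma4 KO replicates 1 and 2 and the double knockout, against 5, 1 and 48 counts in wild-type replicates 1 to 3. As levels these were 2.54, 3.43 and 2.67 CPM without PNMA4 and 1.31, 0.128 and 7.37 CPM in wild type, so the lowest and the highest library were both wild type, as for Kcnq1ot1. Peg13, another imprinted noncoding RNA, had 8.25, 12.6 and 9.03 CPM without PNMA4 and 10.8, 11.4 and 14.4 CPM in wild type, with wild-type replicate 3 highest again.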
